A study of Rattus norvegicus with 4 samples.

Results

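Tafa4-positive neurons of the rat dorsal root ganglion (DRG) were chosen by their counts of Tafa4, which encodes a small secreted chemokine-like protein. A barcode entered with at least 200 genes and at most 25% mitochondrial unique molecular identifiers (UMIs, each standing for 1 captured RNA molecule). It counted as a neuron when Snap25, Uchl1, Tubb3 and Stmn2 together held at least 20 of every 10000 UMIs and exceeded the summed satellite glia genes Fabp7, Ttyh1, Sfrp5 and Kcnj10. Neurons with at least 2 Tafa4 UMIs, fewer than 3 of Trpm8, fewer than 5 of Sst and Nppb together and fewer than 2 of Pvalb were the members. There were 393 of them among 18479 neurons and 46679 retained barcodes. The limits on Trpm8, Sst, Nppb and Pvalb removed none of the neurons with at least 2 Tafa4 UMIs, so in effect Tafa4 alone chose the members.

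The ganglia were L4-L6 ganglia of the operated side from wild-type male Sprague-Dawley rats of a sham group and of a group with the CPIP model, which in the field stands for chronic post-ischaemia pain. The labels give 2 libraries per group, named here Sham 1, Sham 2, CPIP 1 and CPIP 2, each a pool of 3 rats dissociated with enzymes and captured on barcoded beads in microwells. The sources used here give neither the age of the rats nor the time after surgery. The design asks how DRG cells of the CPIP model differ from those of sham rats.

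C-low-threshold mechanoreceptors are unmyelinated sensory neurons that respond to light touch and slow stroking of hairy skin. In the mouse they are usually recognised by tyrosine hydroxylase (Th), the vesicular glutamate transporter VGLUT3 (Slc17a8) and the secreted protein TAFA4. TAFA4 released in the spinal cord is known from mouse work to dampen pain-related signalling, which is why these cells draw interest in pain models.

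The libraries held between 11829 and 12828 barcodes and between 60885664 and 64550637 UMIs, and 87, 95, 121 and 90 members were found in Sham 1, Sham 2, CPIP 1 and CPIP 2. Members were deep cells. Their median was 26946, 20518, 14250 and 23175.5 UMIs in the same order, against 4411.5, 3869, 3529 and 3116 in the other neurons, and single members ranged from 537 to 40299 UMIs. Median mitochondrial shares of members were between 6.11% and 7.14%. A total of 19 barcodes occurred in 2 libraries, and no member carried one of them.

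Tafa4 itself, which fixed membership and is therefore only described, had a median of 4 UMIs per member in each library and at most 27, 19, 24 and 20 UMIs in Sham 1, Sham 2, CPIP 1 and CPIP 2. Just inside the limit lay 135 members with exactly 2 UMIs. Just outside it were 710 neurons with 1 UMI. Satellite glia, which are not expected to make Tafa4, reached 2 UMIs in 2 of 4031, 0 of 4120, 1 of 3930 and 1 of 4229 cells, at median depths of 4841, 5879, 5454 and 5376 UMIs. Those shares were 0.0496%, 0%, 0.0254% and 0.0236%, and for the 0 in Sham 2 the count allowed up to 0.0728%.

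Th was not detected in any member. The 0 UMIs in 393 cells allow a share of up to 0.763% of members with a Th UMI and a level of up to 0.391 CPM (UMIs of a gene per 1000000 UMIs), limits that cover counting error only. In all 46679 retained barcodes there were 42 Th UMIs in 24 barcodes, of which 39 UMIs in 21 neurons, so Th was nearly absent from the whole data set. Slc17a8 was found as 1 UMI in 1 member, in Sham 1, while all neurons together held 215 UMIs in 166 cells. Th and Slc17a8, the usual defining genes of C-low-threshold mechanoreceptors, were thus at or near 0 in the members. For this reason the cells are called Tafa4-positive neurons here and not by that cell type name.

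The other marker genes were not read by the rule, and most members held at least 1 of them. Of 393 members, 370 held at least 1 UMI of P2ry1 (a receptor for ADP), Nmu (the peptide neuromedin U) or Cbln4 (a secreted cerebellin that organises synapses). The share was 93.1%, 94.7%, 94.2% and 94.4% in Sham 1, Sham 2, CPIP 1 and CPIP 2, against 26.9% of other neurons and 14.9% of satellite glia. After each cell was thinned to 4000 UMIs, which left out 34 members and 9313 other neurons with fewer, the shares were 84.1% of members and 30.02% of other neurons. All 3 genes were found in 143 members, 2 of them in 131, 1 in 96 and none in 23. Nmu marked a subset, as it was detected in 147 members (37.4%), of which 145 also held P2ry1.

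Detection of these genes went up with the Tafa4 count of the cell. P2ry1 was found in 9.05% of neurons with 0 Tafa4 UMIs, in 20.3% with 1, in 45.2% with 2, in 63.3% with 3, in 75.5% with 4, in 98.7% with 5 to 9 and in 98.8% with 10 or more. Nmu ran from 0.525% and 5.63% below the limit to 13.3% at 2 UMIs and 74.1% at 10 or more. Depth ran the same way, with median totals of 3370.5 UMIs in cells without Tafa4, 6260 at 2 UMIs and 33611 at 10 or more. The part of depth in this trend was not tested.

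**Figure D1:**
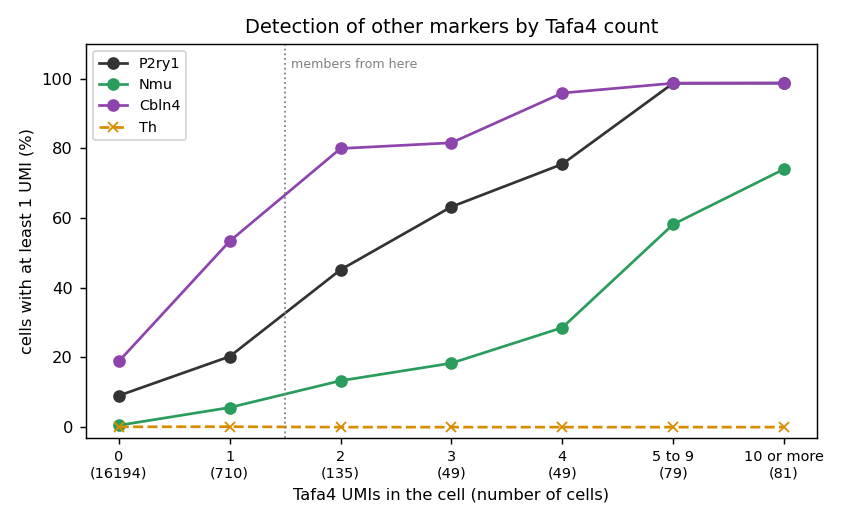
Share of neurons with at least 1 UMI of P2ry1, Nmu, Cbln4 or Th (vertical axis, percent) by the number of Tafa4 UMIs in the cell (horizontal axis, with the number of cells). P2ry1 runs from 9.05% at 0 Tafa4 UMIs to 98.8% at 10 or more, while Th stays near 0 throughout.

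In levels, given as CPM of the summed UMIs of all members of a library, the 4 marker genes were higher in members than in other neurons in each library. Members against other neurons is the contrast that the rule itself sets, so these values are descriptions with no test. As a background, 25.5% of the 6111 genes at 20 CPM or more in either group were higher in members in each library and 39.7% were lower. Tafa4 was at 294, 294, 316 and 268 CPM in the members of Sham 1, Sham 2, CPIP 1 and CPIP 2, and at 6.23 to 8.08 CPM in other neurons. P2ry1 was at 539, 533, 451 and 453 CPM, against 18.6 to 43.1. Both Sham libraries lay above both CPIP libraries for this receptor. Nmu was at 120, 287, 244 and 139 CPM, against 2.04 to 4.40, and differed more between libraries of 1 group than between the groups. Cbln4 was at 640, 549, 443 and 455 CPM, against 59.3 to 84.4, with both Sham libraries above both CPIP libraries.

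Of 12 further genes described for C-low-threshold mechanoreceptors, 9 reached 20 CPM in members or other neurons, and of these 7 were higher and 2 lower in members in each library. Their median log2 ratio of members over other neurons was 1.70, against -0.07 over the 6111 genes. Gfra2, the receptor for neurturin, was at 91.2, 82.5, 87.5 and 189 CPM, where CPIP 2 alone stood high, and at a mean of 27.1 CPM in other neurons. Kcnd3, the pore subunit Kv4.3 of A-type potassium channels, was at 872, 972, 811 and 750 CPM against a mean of 225. Cacna1h, the T-type calcium channel Cav3.2, had a mean of 63.0 CPM against 19.4. The transcription factor Zfp521 and the cadherin Cdh9 had means of 34.7 and 36.2 CPM against 7.50 and 5.33. Ret, the signalling receptor of the GDNF family, and Runx1 were closer to the other neurons, at ratios of 1.61 and 1.31. The 2 lower genes were Piezo2, the touch-activated channel, at 31.8, 56.3, 49.6 and 34.2 CPM against a mean of 66.9, and the zinc finger gene Bnc2, at a mean of 16.4 against 40.2.

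**Figure D2:**
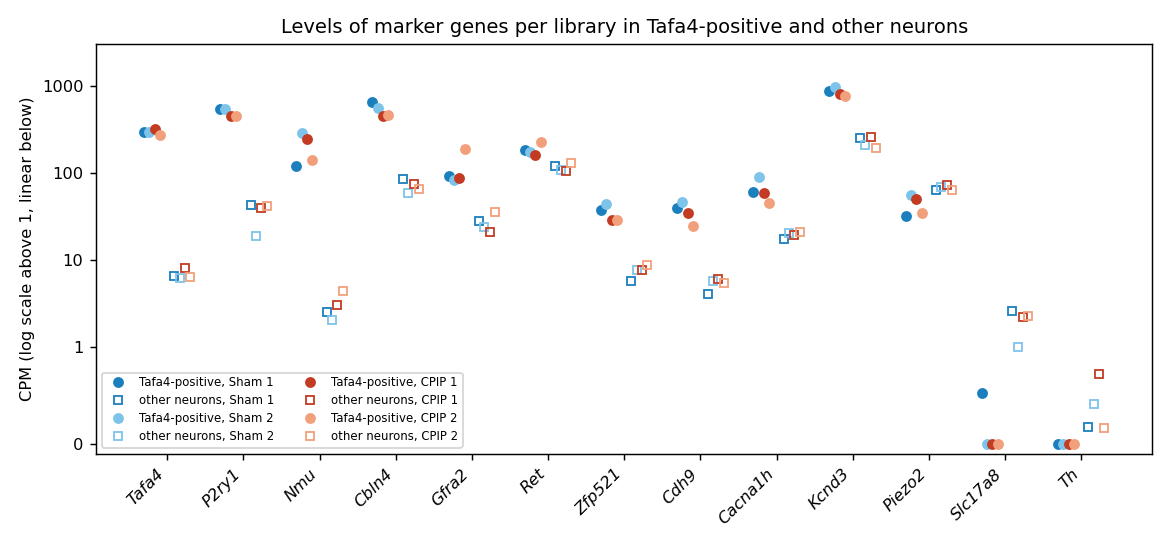
CPM (vertical axis, logarithmic above 1 and linear below) of marker genes in each library, filled circles for Tafa4-positive neurons and open squares for other neurons, in blue tones for Sham and red tones for CPIP. Tafa4, P2ry1, Nmu and Cbln4 stand apart in all 4 libraries, Piezo2 lies lower in members in CPM though not in detection over all libraries, and Th is at 0 in the members of every library.

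In members 3201 genes reached a mean of 50 CPM, and 131 of these were at least 2 times as high as in other neurons and higher in each library. Beside Nmu and Tafa4, the largest ratios included that of Cd7, a surface glycoprotein known from lymphocytes, at 37.7, 110, 71.3 and 48.9 CPM against a mean of 1.01. Kcnj6, the G protein-gated potassium channel GIRK2, was at 116, 126, 95.2 and 77.8 CPM against 4.39. Atp2a3, a calcium pump of the endoplasmic reticulum, was 18.2 times and the adenosine receptor Adora2a 15.9 times as high as in other neurons. Exoc1l was 29.8 times as high, the calcium-binding protein gene Calb1 11.5 times and Pou4f2, a POU-domain transcription factor of sensory neurons, 10.3 times. Some of these genes were also high in other cells. Gstt3, a glutathione transferase, was also at a mean of 274 CPM in satellite glia, and Plcd4, a phospholipase, was at 1151 CPM in neurons with 3 or more Trpm8 UMIs.

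Ion channel and receptor genes went both ways between members and other neurons, again as a description. Of 21 potassium channel genes at 20 CPM or more in either group, 8 were higher and 12 lower in each library. Over all genes at that level 25.5% were higher and 39.7% lower. The higher ones included the auxiliary subunits Dpp10, at a mean of 458 CPM against 201, and Kcnip2, at 126 against 55.1. Both assemble with Kv4 channels such as Kcnd3. Kcnq5 and Kcnk3 were on the lower side, at 3.79 and 3.82 CPM against 45.4 and 36.3. Among purinergic receptors 3 of 6 were higher, namely P2ry1, the ATP-gated channel P2rx2 (50.4 against 12.8 CPM) and the adenosine receptor Adora1 (154 against 76.2). Of 10 sodium channel genes at that level 3 were higher and 4 lower. Of 9 neuropeptide and amine receptor genes 3 were higher and 3 lower. As examples from these lists, the serotonin-gated channel Htr3a was at 208 CPM against 115, and the sodium channel subunit Scn4b at 518 against 204. Oprm1, the mu-opioid receptor, was at 13.2 CPM against 76.6.

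Genes of other sensory neuron types did not all go one way. Of genes at 20 CPM or more, 3 of 3 of the peptidergic list and 7 of 10 of the large neurofilament list were lower in members in each library, with 0 and 2 higher. Calca, which encodes the peptide CGRP of peptidergic nociceptors, was at 368, 171, 290 and 332 CPM in members against 4499 to 5552 in other neurons. Of 7 neuropeptide genes at 20 CPM or more, 6 were lower in each library, among them Adcyap1 (5.25 against 371 CPM) and Cartpt (0.134 against 56.2). Nmu was the exception. The heavy neurofilament gene Nefh, a mark of large myelinated neurons, was at a mean of 11.2 CPM against 95.2. Mrgprd, the defining receptor gene of many non-peptidergic nociceptors in mouse, had no UMI in members and at most 0.162 CPM in other neurons. Of 5 genes of the non-peptidergic list at 20 CPM or more, 2 were higher and 2 lower in members in each library, against 25.5% and 39.7% of all genes at that level. The summed level of the list was 1000.1 to 1348 CPM in members and 1218 to 1546 in other neurons. P2rx3, an ATP-gated channel of such nociceptors, was at 520, 546, 561 and 740 CPM in members and at 694, 588, 635 and 547 in other neurons, higher in members in CPIP 2 only. Slc17a6, the vesicular glutamate transporter VGLUT2, was at 288, 314, 300 and 264 CPM in members, close to the 248 to 274 CPM in other neurons. Summed satellite glia markers were at 1187 to 1654 CPM in members and 1298 to 1630 in other neurons.

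The members were not a single cluster. When all neurons were clustered without the genes of the rule, 268 members (68.2%) fell into 1 cluster of 485 cells led by P2ry1, Plcd4 and Exoc1l, of which they made up 55.3%. A further 89 members (22.6%) lay in a cluster of 3467 cells led by Rgs4, Iapp and Nnat, in which the purinergic channel gene P2rx3 was also among the leading genes. The other 36 were spread over other clusters. With a finer resolution 69.0% of the members still shared 1 cluster. Of the members, 65.5%, 75.8%, 66.1% and 65.6% were in the P2ry1-Plcd4 cluster in Sham 1, Sham 2, CPIP 1 and CPIP 2, so Sham 2 stood highest. Their part of the summed member UMIs was 72.7%, 79.4%, 71.1% and 62.3%, lowest in CPIP 2.

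Members of these 2 clusters had different gene content, as clustering on those genes requires. In the P2ry1-Plcd4 cluster 97.0% of members held P2ry1, 53.7% Nmu and 95.5% Cbln4, with a median of 5 Tafa4 UMIs and 24271 UMIs in all. In the Rgs4-P2rx3 cluster 14.6% held P2ry1, none of 89 held Nmu and 79.8% held Cbln4, with a median of 11473 UMIs. Tafa4 was at exactly 2 UMIs in 57 of those 89 cells. Rgs4, a regulator of G protein signalling, was at 13473 CPM in the latter members and 436 CPM in the former, and P2rx3 at 1570 and 249 CPM. Cbln4 was also held by 57.7% of the remaining cells of the Rgs4-P2rx3 cluster. Conversely, the P2ry1-Plcd4 cluster held 217 neurons that missed the limit, 92 of them with 1 Tafa4 UMI and the others with 0. Their median was 2982 UMIs, and 79.7% of them held P2ry1.

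**Figure D3:**
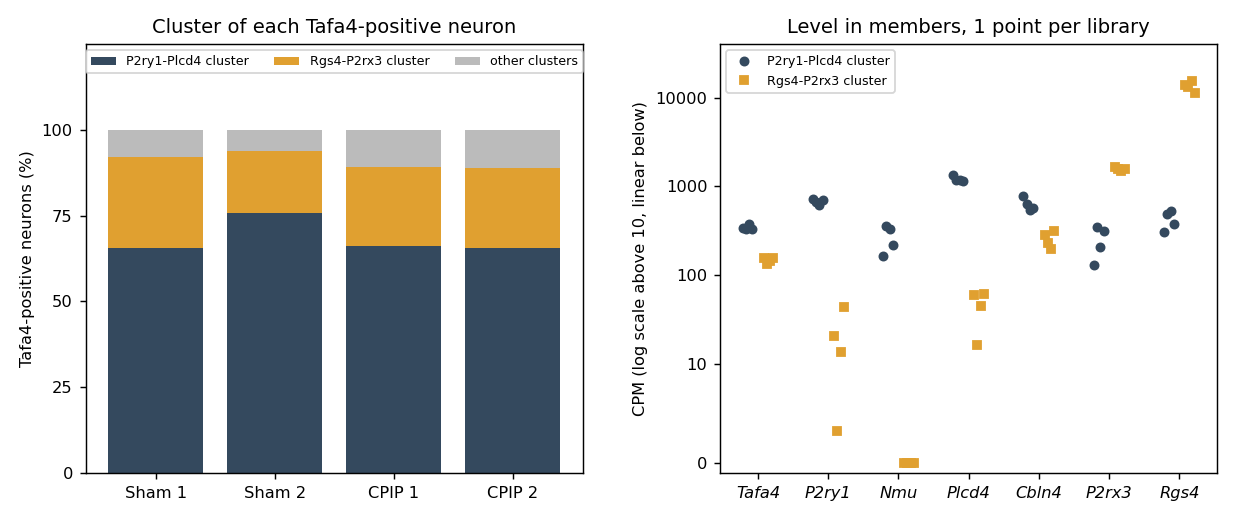
Left, the share of Tafa4-positive neurons (percent) of each library that fell into the P2ry1-Plcd4 cluster, the Rgs4-P2rx3 cluster or another cluster. Right, CPM (logarithmic above 10, linear below) of 7 genes in the members of the 2 clusters, 1 point per library, with Nmu at 0 in the Rgs4-P2rx3 members of all 4 libraries.

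The share of Tafa4-positive cells among neurons was compared next, and no difference could pass the test at this number of libraries. Members made up 1.89% (exact 95% binomial interval 1.51% to 2.32%) of neurons in Sham 1, 2.04% (1.66% to 2.49%) in Sham 2, 2.49% (2.07% to 2.97%) in CPIP 1 and 2.07% (1.67% to 2.54%) in CPIP 2. Both CPIP shares lay above both Sham shares, by little in CPIP 2. The mean was 1.96% ± 0.110 (SD, n = 2) in Sham and 2.28% ± 0.298 (SD, n = 2) in CPIP, with a two-sided exact permutation p of 0.333, the smallest that 2 against 2 libraries allow. As shares of all retained barcodes the values were 0.770%, 0.846%, 0.994% and 0.752%, and the groups overlapped. Among neurons with at least 4000 UMIs the shares were 3.15%, 3.62%, 4.83% and 4.28%. Shares of dissociated cells are not tissue composition, and each interval covers counting error only.

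**Figure D4:**
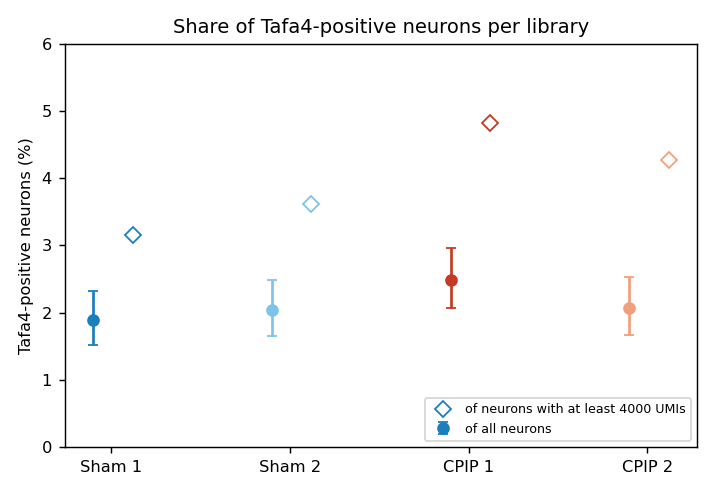
Tafa4-positive neurons as a share of all neurons (filled circles, percent, with exact 95% binomial intervals) and of neurons with at least 4000 UMIs (open diamonds) in each library. The shares of all neurons run from 1.89% in Sham 1 to 2.49% in CPIP 1, with overlapping intervals.

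Gene expression was then compared between CPIP and Sham within the members, a contrast the rule did not use. Member UMIs were summed per library, to between 1697118 and 2216279 UMIs, and tested with the quasi-likelihood test of edgeR. Only 1 of 8701 tested genes (0.0115%) passed an adjusted p of 0.05, with 496 genes (5.7%) at an unadjusted p under 0.05. The gene was Rpl10a-ps9, a ribosomal protein pseudogene, at 0.537, 0.540, 24.7 and 32.5 CPM in Sham 1, Sham 2, CPIP 1 and CPIP 2. It rose by 5.56 on the log2 scale (SE 0.50, edgeR adjusted p = 0.0109). Its mean of 14.6 CPM lies below the 32 CPM set for genes to be named, so it is named after its values were seen. In other neurons edgeR called 1 of 14558 genes (0.00687%), which was Rpl10a-ps9 as well (0.673, 0.741, 22.4 and 35.0 CPM). In satellite glia it was at 0.645, 0.605, 15.9 and 27.6 CPM. UMIs of near-identical ribosomal copies may be split by the counting, so its level is uncertain. Without Sham 1, Sham 2 or CPIP 2 no gene was called, with adjusted p for Rpl10a-ps9 of 0.335, 0.225 and 0.100, and without CPIP 1 60 genes were called, all higher.

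No other gene passed with edgeR, and further genes are given by value. Both CPIP libraries lay above both Sham libraries for 16.6% of all tested genes and below them for 17.6%. Nsg1, a neuronal protein of endosomal traffic, was at 143, 115, 268 and 393 CPM (log2 fold change 1.35, SE 0.19, edgeR adjusted p = 0.172). Rpl17, a ribosomal protein gene, was at 277, 313, 584 and 474 CPM (0.85, SE 0.13, edgeR adjusted p = 0.302). In satellite glia Rpl17 was at 216, 278, 487 and 380 CPM. In the non-member cells of the Rgs4-P2rx3 cluster it was at 309, 483, 705 and 533 CPM. Its higher CPIP level was thus also present outside the members. DESeq2 called 4 genes, among them Rpl10a-ps9, Nsg1 (adjusted p = 1.92e-05) and Rpl17 (adjusted p = 0.00425). Summed over 7 Schwann cell markers, of which Prx and Ncmap were at 0 in members, the level was 1514 to 1570 CPM in Sham and 1459 to 1552 in CPIP. The part of RNA from other cells in the differences was not tested.

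The further rises and falls that met the rule for names all had an edgeR adjusted p of 0.848. On the higher side were Hspb1, which encodes a small heat shock protein, with Tomm22, Patj, RT1-Db1, Ctxn3, Iapp and an unnamed gene (ENSRNOG00000069480). Their log2 fold changes were between 0.56 and 1.21. On the lower side were the mitochondrial gene Mt-nd2 (4235, 5092, 3382 and 3132 CPM), the calcium pump gene Atp2b2 (78.4, 74.5, 53.6 and 46.1 CPM), Prune2, Chfr, Ctla2a, Epb41l1, Dock9, LOC363181 and AABR07069611.1. Their log2 fold changes were between -0.43 and -0.84.

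The marker genes of the members showed no called change. Tafa4 differed by -0.01 (SE 0.12, edgeR adjusted p = 0.998). P2ry1 differed by -0.25 (SE 0.10, edgeR adjusted p = 0.853), Nmu by -0.07 (SE 0.36, edgeR adjusted p = 0.994) and Cbln4 by -0.41 (SE 0.12, edgeR adjusted p = 0.848). Of 9 tested further C-low-threshold mechanoreceptor genes, none was called. Of these, 4 (Kcnd3, Cacna1h, Zfp521 and Cdh9) were lower in both CPIP libraries than in both Sham libraries, as were 17.6% of all tested genes. The list median was -0.16 against 0.0027 over all tested genes. The P2ry1-Plcd4 cluster gave 72.7%, 79.4%, 71.1% and 62.3% of member UMIs, and the part of this in the differences was not tested. Within the P2ry1-Plcd4 members alone the difference of P2ry1 was -0.07 and that of Cbln4 -0.33, again not called by edgeR (adjusted p = 0.972 and 0.703).

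None of the other pathway lists held a called gene. The counts given here are of genes whose CPIP and Sham libraries did not overlap, which held for 16.6% of all tested genes on the higher and 17.6% on the lower side. Of 12 tested calcium channel genes 5 (41.7%) were lower and 2 (16.7%) higher, with a median of -0.21. Of 67 tested nuclear genes of oxidative phosphorylation 17 (25.4%) were higher and 6 (8.96%) lower, with a median of 0.07. Of 12 mitochondrially encoded genes 6 (50%) were lower and none higher, with a median of -0.30. Of 15 tested genes known to respond to axon injury 4 (26.7%) were higher, namely Hspb1, Atf3, Flrt3 and Gap43, and 1 was lower. Atf3, the transcription factor most used as an injury mark in DRG neurons, was at 36.0, 36.1, 53.1 and 53.2 CPM (log2 fold change 0.56, SE 0.17, edgeR adjusted p = 0.848).

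Within the 268 members of the P2ry1-Plcd4 cluster, a set chosen after the data had been seen, edgeR called 3 of 8022 tested genes (0.0374%), all higher in CPIP. These were Rpl10a-ps9, Nsg1 and Hspb1. Nsg1 was at 5.91, 4.08, 36.5 and 52.1 CPM in Sham 1, Sham 2, CPIP 1 and CPIP 2, so that the groups did not overlap. It rose by 3.11 on the log2 scale (SE 0.36, edgeR adjusted p = 0.00494). The counts were 8, 6, 56 and 55 UMIs, in 5 of 57, 4 of 72, 25 of 80 and 18 of 59 cells, and the 3 cells with the highest counts held 21 UMIs in CPIP 1 and 25 in CPIP 2. These cells are 8.77%, 5.56%, 31.2% and 30.5% of the members in the cluster at median depths of 28107, 22955.5, 23012 and 21649 UMIs. In satellite glia, at median depths of 4841 to 5879 UMIs, 6.03%, 5.02%, 7.99% and 8.23% of cells held an Nsg1 UMI, at 12.7, 10.1, 16.4 and 18.1 CPM. The Sham level of Nsg1 in these members was therefore below that of satellite glia, and the CPIP level above it.

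Nsg1 was a far more abundant transcript in the Rgs4-P2rx3 members, at 527, 581, 865 and 1009 CPM, and in other neurons, at 319, 295, 481 and 477 CPM. The 217 shallower cells of the P2ry1-Plcd4 cluster held only 6, 8, 6 and 8 Nsg1 UMIs (33.3, 50.6, 34.1 and 39.3 CPM), and the groups overlapped. With all 485 cells of the cluster, the difference was 2.26 (edgeR adjusted p = 0.0299). The part of free RNA in the low Nsg1 counts was not tested.

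Hspb1 was at 93.8, 78.9, 240 and 179 CPM in the P2ry1-Plcd4 members. It rose by 1.29 on the log2 scale (SE 0.17, edgeR adjusted p = 0.0170). The share of cells with an Hspb1 UMI was 73.7%, 69.4%, 75% and 74.6%, and the median cell held 1, 1, 2 and 2 UMIs. A single CPIP 1 cell held 78 of the 368 Hspb1 UMIs of that library. In the Rgs4-P2rx3 members Hspb1 was nearly absent, with 3, 0, 7 and 1 UMIs. In other neurons it was at 74.5, 74.2, 74.8 and 136 CPM, where only CPIP 2 was high. The calls for all 3 genes were lost without either Sham library. Without Sham 1 or Sham 2 no gene was called (adjusted p of Nsg1 0.117 and 0.161, of Hspb1 0.274 and 0.725, of Rpl10a-ps9 0.117 and 0.161 with edgeR), while without CPIP 1 304 and without CPIP 2 22 genes were called. DESeq2 called 4 genes in these cells, with adjusted p of 0.00355 for Nsg1 and 0.00355 for Hspb1.

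**Figure D5:**
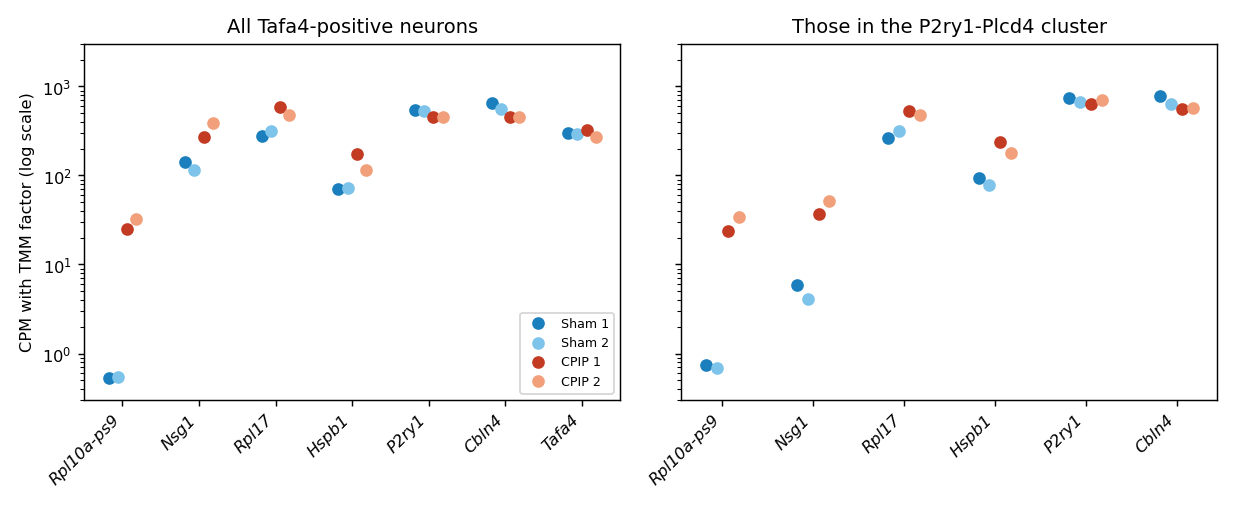
CPM scaled by TMM factors (logarithmic axis) of named genes in each library, for all Tafa4-positive neurons (left) and those in the P2ry1-Plcd4 cluster (right), blue for Sham and red for CPIP. In the right panel Nsg1 lies at 5.91 and 4.08 CPM in Sham and at 36.5 and 52.1 CPM in CPIP.

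Whether the difference between CPIP and Sham was another one in members than in other neurons was tested directly, as an interaction with the library as a block. This called 57 of 13748 genes (0.415%), 37 with a higher and 20 with a lower CPIP-over-Sham ratio in members. In 52 of the 57 the ratio of members to other neurons did not overlap between the groups, which held for 35.7% of all tested genes. The count rests on CPIP 2, without which it was 3, and on Sham 2, without which it was 20.

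Of the 10 leading genes of the Rgs4-P2rx3 cluster 5 were called, all higher in members, and of the 10 of the P2ry1-Plcd4 cluster 4 were called, all lower. Rgs4 was at 3822, 2727, 4868 and 4452 CPM in members and at 6495, 6098, 6740 and 4964 in other neurons, a difference in log2 fold change of 0.65 (SE 0.10, edgeR adjusted p = 1.25e-05). Nnat, Kcnip1, Iapp and Nsg1 were the others. Gstt3 was at 366, 247, 243 and 242 CPM in members and at 11.6 to 23.8 in other neurons, a difference of -0.88 (SE 0.14, edgeR adjusted p = 1.25e-05). The others were P2ry1 (-0.70), Plcd4 (-0.49) and Fabp3 (-0.60). The P2ry1-Plcd4 cluster gave 72.7%, 79.4%, 71.1% and 62.3% of member UMIs in Sham 1, Sham 2, CPIP 1 and CPIP 2. The part of these shares in the calls was not tested.

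Set against other neurons, the P2ry1-Plcd4 members alone gave 24 called genes. Of these 15 were also among the 57, and 50 of the 57 had the same direction. Both counts rest largely on the same cells, since these members held 71.6% of all member UMIs, so they are no independent check. Rgs4 was no longer called there (0.31, edgeR adjusted p = 0.367), while Gstt3 (-0.67, 0.000399), Calb1 (-1.38, 4.19e-06), Kcnj6 (-0.99, 0.00595) and P2ry1 (-0.53, 0.00308) stayed lower. Gpi, a glycolytic enzyme (1.38, 3.44e-10), Nsg1 (2.47, 1.17e-09), Anxa1 (1.03, 9.13e-08) and Hspb1 (0.91, 5.47e-07) were higher, where the second value of each pair is the edgeR adjusted p. Gpi was at 47.3, 40.1, 85.9 and 120.4 CPM in the P2ry1-Plcd4 members, where the groups did not overlap but its own CPIP-over-Sham difference was not called (1.22, edgeR adjusted p = 0.116). Anxa1 was at 50.2, 81.6, 27.3 and 236 CPM there, so that CPIP 2 alone stood high and CPIP 1 lay below both Sham libraries (edgeR adjusted p = 0.884 for its own CPIP-over-Sham difference). Calb1 was at 76.8, 137, 70.1 and 18.2 CPM in all members, so that CPIP 2 alone stood low. For P2ry1 the members' own difference between CPIP and Sham was not called, and other neurons held 41.8, 17.8, 37.4 and 39.9 CPM, with Sham 2 low.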

How the data were processed

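The authors deposited whole-number UMI counts per gene and barcode for 4 libraries, per the file headers without scaling. The sources used here name no aligner, annotation or build, so no coordinates are given. Members, marker lists and pathway lists were chosen with earlier results of these data known. Counts were summed per library over members and tested with edgeR 4.0.16 (R 4.3.3) by quasi-likelihood, with TMM factors, filterByExpr for low counts and p-values adjusted by Benjamini-Hochberg over all tested genes. DESeq2 1.42.0 was an alternative. The labels call the libraries biological replicates, each a pool of 3 rats. Levels in the comparison with other neurons are CPM of all UMIs, and levels beside tests include the TMM factor. Named genes between CPIP and Sham had a mean of at least 32 CPM and groups that did not overlap, and were every called gene or otherwise the 10 rises and 10 falls with the smallest p. Neurons were clustered with the Leiden method (2000 variable genes, 30 principal components, 15 neighbours, resolution 0.5 or 1.0, leidenalg 0.10.2, scanpy 1.11.5) without the genes of the rule. Scrublet marked 1, 4, 2 and 278 barcodes and was taken to have failed in the first 3 libraries, so doublets were kept, and an alternative removed the 5% of barcodes with the highest scores. On simulated counts for the CPIP contrast (8701 genes) 62.4% of 2-fold and 90.2% of 4-fold changes were recovered, with 74 false calls summed over 5 runs. For the interaction (13748 genes) 36% and 63% were recovered, with 15 false calls summed over 5 runs. Each simulation changed more genes than were called in the data. That eases the adjusted threshold, so recovery in the data may be lower. Results for some genes that met the rule for names are not reported here.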

Additional observations from a re-analysis of the deposited data

Results flagged for a closer look

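The edgeR interaction test, with the library as a block, called 57 genes. For these the difference between CPIP and Sham was another one in Tafa4-positive than in other neurons. Of the 57, 15 were also called in the P2ry1-Plcd4 members alone, which are a part of the same cells and so no independent check. With a Tafa4 limit of 1 UMI the test called 1 gene. The 5 genes with the smallest adjusted p were Tmem233 (difference in log2 fold change 0.81), Rgs4 (0.65), the metallothionein gene Mt3 (1.10), Gstt3 (-0.88) and Calb1 (-1.66), where positive values are higher in members. Mt3 was at 60.6, 30.6, 56.1 and 225 CPM in the members of Sham 1, Sham 2, CPIP 1 and CPIP 2, so CPIP 2 alone stood high, and other neurons held 205, 172, 154 and 353 CPM. Tmem233 was at 255, 184, 309 and 334 CPM in members and at 675, 683, 642 and 504 CPM in other neurons. In the P2ry1-Plcd4 members alone Tmem233 (0.38), Rgs4 (0.31) and Mt3 (1.36) were not called, while Gstt3 and Calb1 were.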

How the results depend on the processing

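The count of genes called between CPIP and Sham in all members was 1, and it was 4 with DESeq2, 3 with all cells of the P2ry1-Plcd4 cluster and 3 with its members only. It ranged from 0 to 60 without 1 library at a time. It was 1 under the other settings run, among them RLE factors, no low-count filter, Tafa4 limits of 1 or 3 UMIs and the replicate block. Within the cluster's members the count of 3 ranged from 0 to 304 without 1 library. The 57 interaction calls ranged from 3 to 71 without 1 library, were 12 with at least 3 Tafa4 UMIs, 1 with at least 1 and 24 in the cluster's members, and were 68 with the replicate block. With 1 library left in a group, that library is assumed to vary like those of the other group. Deviations of libraries with the same replicate number correlated at -0.0556 over 8701 genes. With 2 libraries per group this is a single value, which cannot decide whether replicate numbers pair libraries. With the replicate block the difference in the share of neurons was 0.314 percentage points, as without it. The share with P2ry1, Nmu or Cbln4 was 0.41 percentage points higher in CPIP, and reversed to -2.08 with at least 3 Tafa4 UMIs, -0.625 in the cluster's members, -7.11 after thinning and ranged from -0.407 to 1.23 without 1 library. The share with a Th UMI differed by 0, and by -0.183 points with at least 1 Tafa4 UMI. For 21 named genes over 332 gene and setting pairs, none reversed, 8 passed the threshold anew and 3 lost it, all 3 for Rpl10a-ps9 (log2 fold change 5.37 to 5.57). All alternatives confined to the cluster were chosen after seeing the data, as was the one on neurons with at least 4000 UMIs. Low counts limit Th, Slc17a8 and Nsg1.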

Other observations

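Immediate early genes, which respond to activity and to dissociation, were lower in Tafa4-positive neurons than in other neurons. Of 20 such genes at 20 CPM or more in either group, 17 were lower and 1 higher in each library. Over all 6111 genes at that level 39.7% were lower and 25.5% higher. The median log2 ratio of the 20 genes was -0.83, against -0.07 over the 6111. Egr1 had a mean of 92.5 CPM in members and 172 in other neurons, and Atf3 44.2 and 98.6. Fos had 8.80 and 27.7. Satellite glia held these genes at 18268 to 19906 CPM in sum, against 2005 to 2320 in members and 2773 to 3346 in other neurons, and the part of their RNA in the neuron values was not tested. Nuclear genes of oxidative phosphorylation lay the other way, with 39 of 60 higher and 3 lower in each library. Beside these counts, 25.5% of all genes at that level were higher and 39.7% lower. All of these are descriptions, since members against other neurons is the contrast of the rule.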
